A study of Mus musculus with 16 samples.

Results

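Solute carriers are the membrane proteins, named SLC with a family number, that move nutrients, ions, metals and metabolites into and out of cells and organelles. The genes described here are those whose symbol starts with Slc and a digit and whose mean normalized count over all 16 libraries was at least 10. Of 51912 genes in the table, 379 had such a symbol and 176 reached this mean, while 203 did not, 132 of them at 0 in every library. The mean over all libraries chose them and no difference between subpopulations did. By name, 171 of the 176 encode carriers, and 5 carry the prefix without being carriers. They came from 44 of the 49 families in the table and were grouped by transported substance into 16 classes.

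The libraries hold RNA of positively selected germinal center (GC) B cells, B220+ CD38low CD95+ and positive for cMyc-GFP, sorted from the spleen 7 d after intraperitoneal immunization with sheep red blood cells (SRBCs). All mice, male and female and 6 to 15 wk old, were cMyc gfp/gfp reporters, in which the endogenous locus makes cMyc fused to GFP, so that every subpopulation carries the same allele. CD69hi cells were sorted as cMyc+prePB, a candidate plasmablast precursor. Light and dark zone markers were not used for cMyc+prePB, and the paper found most of its cells in the light zone. Of the remaining cells, those in the light zone gate were divided by CD23 and CD21/35. They gave cMyc+early (both high), cMyc+lateCD23int (both intermediate) and cMyc+lateCD23lo (both low). Each subpopulation had 4 libraries, numbered 1 to 4. The labels do not say whether these came from separate animals, so p-values measure only the spread between these libraries. All 10 GC B cell markers examined were read, with a summed normalized count from 97320 to 257900 per library, and Fcer2a, the gene of the sorting marker CD23, averaged 7457, 13400, 8594 and 2274 in cMyc+prePB, cMyc+early, cMyc+lateCD23int and cMyc+lateCD23lo. Cd69, whose protein defines cMyc+prePB, did not stand out there in its transcript, at 3453 ± 1297 against 3160 ± 1243, 3762 ± 1766 and 2277 ± 985 in the others. Its multigroup test did not pass in limma (adjusted p = 0.69).

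A B cell that receives T cell help grows and divides within hours, and Myc is known as a driver of that growth. Growing lymphocytes take up amino acids, glucose and nucleosides through plasma membrane carriers, exchange citrate and nucleotides across the mitochondrial membrane, and load the Golgi with nucleotide sugars and zinc for the glycoproteins they make. Several plasma membrane carriers work only with a partner chain, the best known being CD98, whose heavy chain is a solute carrier itself (Slc3a2).

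Myc and its partner Max bind the E-box CACGTG, and promoter windows of 250 bases before to 50 bases after the annotated start were searched for it. The motif is its own reverse complement, so both strands are covered. Sequences came from RefSeq on GRCm38.p6, where 133 of the 176 genes were matched. CACGTG lay in the window of 23 of the 133 (17.3%), of 1059 of the 8618 tested genes with a window (12.3%) and of 2187 of all 27025 genes in the table (8.09%). Of the 18 genes with the smallest multigroup p-values described below, 14 had a window and 2 held the motif (14.3%). Windows of 5 carriers described below are printed 5′ to 3′ with CACGTG in capitals. The mitochondrial citrate carrier and the Golgi zinc carrier are the 2 just counted, and the CD98 heavy chain has no motif. The monocarboxylate and phosphate carriers hold it but were not among the 18. These 5 were picked for display, so their share with the motif does not stand for the carriers. Slc14a1, which had the smallest multigroup p-value, had no window.
Slc25a1 promoter, chr16:17928170-17928469, minus strand: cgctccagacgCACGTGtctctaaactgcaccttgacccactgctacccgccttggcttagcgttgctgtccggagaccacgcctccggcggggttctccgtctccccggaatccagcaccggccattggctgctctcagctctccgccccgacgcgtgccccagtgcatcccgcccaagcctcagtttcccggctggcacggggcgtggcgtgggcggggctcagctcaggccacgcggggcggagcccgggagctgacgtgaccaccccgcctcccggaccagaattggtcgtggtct
Slc30a5 promoter, chr13:100833378-100833677, minus strand: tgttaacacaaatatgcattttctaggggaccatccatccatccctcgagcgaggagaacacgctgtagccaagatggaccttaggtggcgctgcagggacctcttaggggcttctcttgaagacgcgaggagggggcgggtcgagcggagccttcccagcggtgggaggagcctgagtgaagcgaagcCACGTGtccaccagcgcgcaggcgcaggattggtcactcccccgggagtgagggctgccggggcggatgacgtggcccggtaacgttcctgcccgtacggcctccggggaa
Slc3a2 promoter, chr19:8713848-8714147, minus strand: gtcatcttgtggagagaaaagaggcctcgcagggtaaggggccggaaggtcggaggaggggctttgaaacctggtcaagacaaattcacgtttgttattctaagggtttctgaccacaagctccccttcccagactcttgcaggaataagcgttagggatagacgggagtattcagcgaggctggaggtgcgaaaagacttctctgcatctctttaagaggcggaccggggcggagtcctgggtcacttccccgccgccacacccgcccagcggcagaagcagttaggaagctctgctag
Slc16a1 promoter, chr3:104638414-104638713, plus strand: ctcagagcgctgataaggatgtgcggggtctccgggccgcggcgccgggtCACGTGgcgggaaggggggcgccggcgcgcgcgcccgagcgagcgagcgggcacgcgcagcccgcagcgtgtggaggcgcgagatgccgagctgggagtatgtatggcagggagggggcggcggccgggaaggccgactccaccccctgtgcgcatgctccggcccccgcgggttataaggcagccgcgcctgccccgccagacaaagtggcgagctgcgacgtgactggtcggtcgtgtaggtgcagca
Slc20a1 promoter, chr2:129198523-129198822, plus strand: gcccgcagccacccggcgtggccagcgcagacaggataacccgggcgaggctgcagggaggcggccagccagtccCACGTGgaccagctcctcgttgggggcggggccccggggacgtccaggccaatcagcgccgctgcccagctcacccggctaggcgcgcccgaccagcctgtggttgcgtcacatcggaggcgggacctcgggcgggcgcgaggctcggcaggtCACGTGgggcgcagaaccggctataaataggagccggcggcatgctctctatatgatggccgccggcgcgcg
The motif began 239 bases before the start in Slc25a1, 61 before in Slc30a5, 200 before in Slc16a1, and 175 and 22 before in Slc20a1. RefSeq places the start of Slc3a2 inside the span that GENCODE gives for the gene, and further starts were not searched for it. A match is a description of the letters and not of binding, which was not measured here.

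Carrier transcripts spanned a wide range of levels. Of the 176 genes, 22 had a mean normalized count of 1000 or more, 95 from 100 to 1000 and 59 from 10 to 100. Divided by exonic length, their median was 45.2 normalized counts per kilobase, against 79.9 for all tested genes. The mitochondrial carrier family (Slc25), with 36 genes, held 65.3% of the normalized counts of all 176 genes, and Slc25a5 alone, an ADP/ATP carrier, held 41.8%. Per kilobase Slc25a5 stood at 40695, followed among the genes named here by the ADP/ATP carrier Slc25a4 at 4110 and the phosphate carrier Slc25a3 at 1660. Slc25a5 has near-identical pseudogene copies, so its level is uncertain. Outside the Slc25 family, the levels per kilobase were led by Slc39a1 (827), a zinc importer, and Slc3a2 (822). They were followed by Slc50a1 (616), a sugar carrier, Slc31a1 (608), the copper importer, and Slc35b1 (512), which serves the endoplasmic reticulum.

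**Figure D1:**
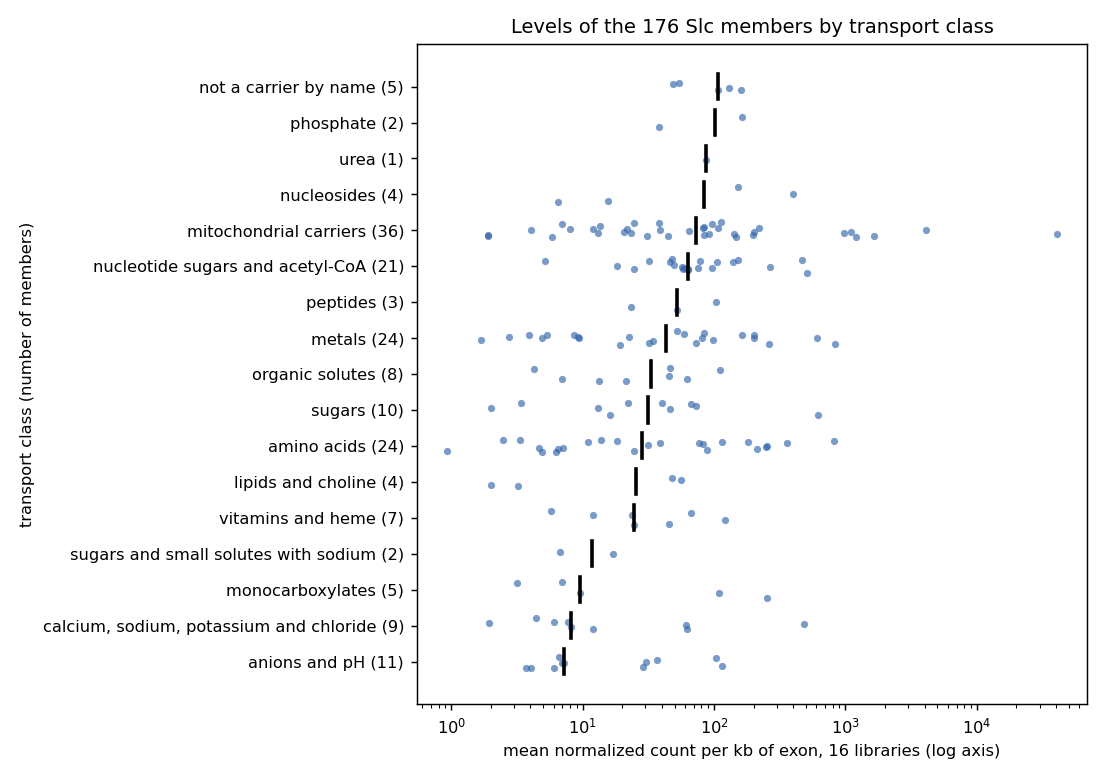
Mean normalized count per kilobase of each of the 176 genes over all 16 libraries (log axis), by class of transported substance. Each point is a gene, and the mitochondrial class reaches highest, with Slc25a5 at 40695.

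At the lower end, the mean of 10 set the edge of the list. Just inside lay Slc25a23 (10.1), Slc2a9 (10.1) and Slc25a43 (10.4), and just outside lay Slc34a1 (9.35), Slc2a8 (9.43) and Slc22a23 (9.87). Of the 176 genes, 37 (21.02%) were at 0 in at least 1 library, against 17.6% of tested genes. Without its highest library, the mean would fall under 10 in 10 genes, and without its highest subpopulation in 9. The well known carriers Slc16a3 and Slc7a11 did not reach 10. Slc16a3, a lactate exporter, had a mean of 1.63 and at most 18.1 in a library, and Slc7a11, the cystine carrier, had a mean of 6.01 and at most 67.9. The residual SD on the log2 scale had a median of 2.08 in the genes at 10 to 100, 0.731 at 100 to 1000 and 0.353 at 1000 or more, so that differences of low genes were resolved less well.

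The multigroup comparison asked which carriers differed among the 4 subpopulations. At an unadjusted p of at most 0.04, 18 of the 176 genes (10.2%) passed, where 8.55% of the 12505 tested genes did. Adjusted over all tested genes in limma, 1 gene passed, the urea carrier Slc14a1 (0.568% of the genes, where 0.408% of tested genes passed). The share of carriers that passed was thus near that of all genes. By edgeR 1 gene passed as well, and by DESeq2 4 did: Slc14a1, Slc35b4, Slc30a5 and Slc7a3.

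Slc14a1 encodes the urea channel UT-B, which also passes water and was the only gene of its class among the 176. On chromosome 18 (ENSMUSG00000059336), it was read at 265, 151, 289 and 289 normalized counts in the cMyc+prePB libraries 1 to 4. The cMyc+early libraries had 587, 581, 770 and 514, and the cMyc+lateCD23int libraries 467, 271, 485 and 459. The cMyc+lateCD23lo libraries had 86.2, 90.8, 94.8 and 106, below every other library of the series. cMyc+early lay above each of the other subpopulations without overlap, and cMyc+prePB and cMyc+lateCD23int overlapped. Means were 613 ± 110 (SD, n = 4) in cMyc+early, 420 ± 100 in cMyc+lateCD23int, 249 ± 66 in cMyc+prePB and 94.5 ± 8.49 in cMyc+lateCD23lo. The level was 6.49 times as high in cMyc+early as in cMyc+lateCD23lo, a log2 difference of 2.67 (95% interval 2.01 to 3.33) with an adjusted p of 0.00061 in limma. Between cMyc+lateCD23int and cMyc+lateCD23lo the ratio was 4.45 and the log2 difference 2.11 (1.45 to 2.77, adjusted p = 0.034). This second call was lost in 14 of 16 fits without 1 library, being kept without cMyc+lateCD23int replicate 2 or cMyc+prePB replicate 2, and its adjusted p ranged from 1.5e-08 to 0.27 over all alternatives. cMyc+prePB was 2.64 times as high as cMyc+lateCD23lo (log2 difference 1.35, adjusted p = 0.084) and stood at 0.406 of cMyc+early (log2 difference −1.33, adjusted p = 0.13), neither past the threshold in limma. DESeq2 called both (adjusted p = 0.0013 and 0.0029), and limma with a replicate block called the first (adjusted p = 0.035). For each of these pairs the two-sided exact permutation test gave p = 0.0286, the smallest that 4 against 4 libraries allow, and 0.0857 for cMyc+prePB against cMyc+lateCD23int. Urea channels are abundant in erythroid cells, and the summed erythroid markers ranged from 170 to 3131 normalized counts in cMyc+prePB, 512 to 2428 in cMyc+early, 783 to 4956 in cMyc+lateCD23int and 682 to 1509 in cMyc+lateCD23lo, where Slc14a1 was lowest. At least 1 read of each of the 7 markers in the table was found and 4 reached a mean of 10, and their part in the result was not tested. In sorted bulk samples fewer cells that express a gene and less RNA per cell cannot be told apart, here and in all that follows.

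**Figure D2:**
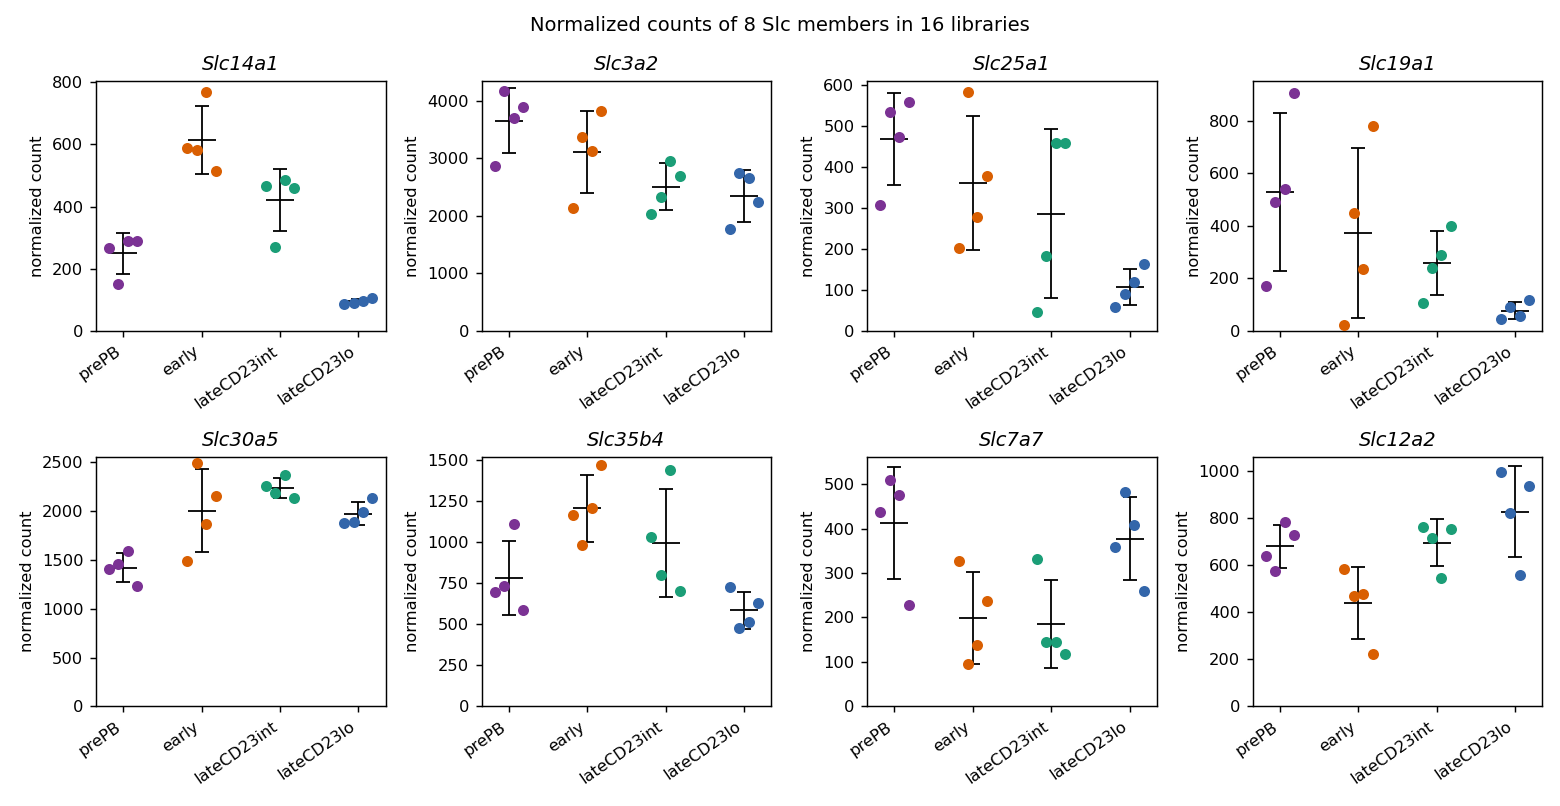
Normalized counts of 8 carriers in each library (points), by subpopulation, with the mean and SD (bars). Slc14a1 is lowest in the 4 cMyc+lateCD23lo libraries (86.2 to 106) and highest in cMyc+early (514 to 770), while most other genes overlap between subpopulations.

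Amino acid carriers formed a class of 24 genes, of which 3 (Slc7a3, Slc7a7 and Slc3a2) were among the 18. None passed the adjusted test in limma in any pair, while DESeq2 called Slc7a3 in cMyc+prePB and in cMyc+early, each against cMyc+lateCD23lo (adjusted p = 0.0018 and 0.017), and limma with a replicate block called Slc3a2 between cMyc+prePB and cMyc+lateCD23lo (adjusted p = 0.031). The summed normalized count of the class was 17252 ± 2674 in cMyc+prePB and 15320 ± 1694 in cMyc+early, and 14427 ± 3038 in cMyc+lateCD23int and 14044 ± 1195 in cMyc+lateCD23lo, with overlap. In 17 of the 24 genes the fitted mean of cMyc+prePB exceeded that of cMyc+early, with a median log2 difference of 0.21. Over all tested genes this held in 51.2%, with a median of 0.01.

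Slc3a2, the CD98 heavy chain (chr19:8706882-8723369, minus strand), had 2856, 4166, 3703 and 3886 normalized counts in cMyc+prePB and 2130, 3363, 3132 and 3816 in cMyc+early. In cMyc+lateCD23int it had 2028, 2322, 2955 and 2692, and in cMyc+lateCD23lo 1760, 2735, 2659 and 2231. Every cMyc+prePB library lay above every cMyc+lateCD23lo library, and cMyc+early overlapped with both late subpopulations. The ratio of means was 1.56 between cMyc+prePB and cMyc+lateCD23lo, a log2 difference of 0.65 (0.22 to 1.07) with an adjusted p of 0.20 in limma. Its light chain Slc7a5, which carries large neutral amino acids as LAT1, averaged 621 ± 256, 437 ± 328, 335 ± 189 and 311 ± 39.5 in this order of subpopulations, with a log2 difference of 0.91 (−0.15 to 1.97) between the first and the last. The cMyc+early libraries ran from 174 to 867, so that the order of the last 3 was not resolved.

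Another CD98 light chain, Slc7a7, exchanges cationic for neutral amino acids. It had 437, 509, 475 and 229 normalized counts in cMyc+prePB, 327, 96.5, 138 and 237 in cMyc+early, 332, 145, 145 and 118 in cMyc+lateCD23int, and 358, 483, 409 and 260 in cMyc+lateCD23lo. The 2 outer subpopulations were thus high and the 2 inner ones low, with overlap between them, mostly through library 1 of each inner subpopulation and library 4 of each outer one. Log2 differences were 1.21 (0.30 to 2.12) for cMyc+prePB against cMyc+lateCD23int and −1.11 (−2.02 to −0.20) for cMyc+lateCD23int against cMyc+lateCD23lo, with adjusted p of 0.40 and 0.73 in limma. The summed plasma cell markers, which are mostly Jchain, were also higher in the outer than in the inner subpopulations on the whole, from 37260 to 111300 in cMyc+prePB, 23490 to 30150 in cMyc+early, 31590 to 59110 in cMyc+lateCD23int and 56150 to 90120 in cMyc+lateCD23lo, with all 6 markers read and 5 reaching a mean of 10. Xbp1 shared this, at 4820 ± 877, 3599 ± 344, 3707 ± 208 and 4250 ± 675 in the order of the values above. Irf4, at 729, 720, 695 and 596, Prdm1, at 35.2, 2.74, 80.7 and 82.9, and Sdc1, at 27.4, 11.5, 13.2 and 0.489, did not. The part of these markers was not tested. Slc7a6, a close relative of Slc7a7, did not follow its order, at 1480 ± 371, 975 ± 314, 1152 ± 365 and 967 ± 234 in the order above.

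The cationic amino acid carrier Slc7a3 was scarcely read in cMyc+lateCD23lo. Its libraries had 206, 118, 10.8 and 28 normalized counts in cMyc+prePB, 0, 76.1, 71.2 and 46.9 in cMyc+early, and 2.99, 49.9, 19.7 and 30.7 in cMyc+lateCD23int. In cMyc+lateCD23lo they had 3.23, 1.87, 0 and 0, which is at most 3 reads in each, so no ratio is given. A count of 3 reads corresponds to 2.48 to 3.23 normalized counts and covers counting error only. Slc7a1, another cationic amino acid carrier, was read throughout, with means from 896 in cMyc+early to 1083 in cMyc+lateCD23lo. The glutamine carriers overlapped throughout: Slc1a5 averaged 1187 ± 401, 1202 ± 729, 1171 ± 710 and 684 ± 253, Slc38a1 ranged from 1968 to 4638 over all libraries, and Slc38a2 from 1221 to 2670. Slc6a6, which carries taurine, averaged 840 ± 202, 758 ± 227, 572 ± 384 and 433 ± 90.1. Its cMyc+prePB libraries lay above those of cMyc+lateCD23lo (lowest 560 against highest 524), with an adjusted p of 0.28 in limma. Slc43a3, a nucleobase carrier placed in this class by its family, had its lowest mean in cMyc+lateCD23int, at 1330 ± 260 against 1839 ± 241 in cMyc+prePB (log2 difference 0.48, adjusted p = 0.39). Slc43a1, a neutral amino acid carrier, ranged from 105 in cMyc+lateCD23int to 176 in cMyc+lateCD23lo in its means.

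Glucose enters cells through facilitative carriers of the Slc2 family, and 10 genes of the sugar class were present. In cMyc+lateCD23lo the class had its lowest summed count, 1646 ± 254, against 2449 ± 594 in cMyc+lateCD23int, 2356 ± 365 in cMyc+early and 2104 ± 475 in cMyc+prePB. Fitted means were higher than in cMyc+lateCD23lo in 8 of 10 genes for cMyc+prePB (median log2 difference 0.62), in 9 for cMyc+early (0.76) and in 8 for cMyc+lateCD23int (1.03), where the medians of all tested genes were −0.01, −0.01 and 0.02. Of all tested genes, 49.5%, 49.6% and 51.2% were higher. These 3 comparisons share the cMyc+lateCD23lo libraries. No gene of the class passed the adjusted test in limma, edgeR or DESeq2.

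Slc2a1 (GLUT1) had 94.6, 438, 332 and 198 normalized counts in cMyc+prePB, 51.4, 411, 350 and 386 in cMyc+early, 113, 243, 483 and 203 in cMyc+lateCD23int, and 72.2, 158, 91.8 and 131 in cMyc+lateCD23lo. Library 1 was the lowest of each subpopulation and in the other 3 it lay within or below the range of cMyc+lateCD23lo. The log2 difference of cMyc+lateCD23int to cMyc+lateCD23lo was 1.07, with an interval from −0.29 to 2.42. Slc2a3 (GLUT3) differed less, at 170 ± 88.9, 141 ± 109, 175 ± 139 and 149 ± 110. Slc2a6 (GLUT6), a lysosomal hexose carrier, had 218, 153, 138 and 424 in cMyc+prePB and 109, 4.68, 4.08 and 104 in cMyc+lateCD23lo, without overlap (log2 difference 3.14, adjusted p = 0.24). The other subpopulations ran from 19.9 to 220 and from 41.8 to 305. Slc37a4, which brings glucose 6-phosphate into the endoplasmic reticulum, went the other way: it averaged 103 ± 89.4 in cMyc+prePB and 280 ± 103, 237 ± 142 and 220 ± 62.4 in the others, with an adjusted p of 0.39 for the difference from cMyc+early.

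Lactate and pyruvate cross the membrane through Slc16 carriers, of which Slc16a1 (MCT1) was the most abundant. Its libraries had 1123, 1913, 918 and 1551 normalized counts in cMyc+prePB, 964, 854, 1610 and 1835 in cMyc+early, 596, 1156, 869 and 1162 in cMyc+lateCD23int, and 220, 1034, 733 and 1228 in cMyc+lateCD23lo. All subpopulations overlapped. Between cMyc+prePB and cMyc+lateCD23lo the log2 difference was 0.97 (0.07 to 1.88, adjusted p = 0.36 in limma). Slc16 carriers need a partner glycoprotein to reach the surface, and of the 3 partner genes examined, embigin (Emb) passed the multigroup test (adjusted p = 0.022). Emb had 706, 1264, 1096 and 1839 normalized counts in cMyc+prePB, 165, 363, 273 and 275 in cMyc+early, 186, 607, 372 and 267 in cMyc+lateCD23int, and 459, 1125, 838 and 1154 in cMyc+lateCD23lo. Emb was higher in cMyc+prePB, without overlap with cMyc+early (log2 difference 2.16, adjusted p = 0.027). The other partner of these carriers, basigin (Bsg), averaged 3471 ± 243, 3244 ± 323, 2858 ± 378 and 2889 ± 238, with an adjusted multigroup p of 0.64, and Ostm1, partner of a chloride exchanger, had one of 0.65.

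Folate, thiamine, riboflavin and heme carriers made up a class of 7 genes, and in 6 of them the fitted mean was higher in cMyc+lateCD23int than in cMyc+lateCD23lo (median log2 difference 0.92). Over all tested genes 51.2% were higher, with a median of 0.02. The summed count of the class was 1177 ± 66.7 in cMyc+lateCD23int and 706 ± 203 in cMyc+lateCD23lo, without overlap (lowest 1097 against highest 911). Slc19a1, the reduced folate carrier (chr10:77032241-77061002, plus strand), was among the 18. It had 172, 492, 540 and 907 normalized counts in cMyc+prePB, 22, 449, 237 and 780 in cMyc+early, 107, 238, 288 and 400 in cMyc+lateCD23int, and 44.2, 88.9, 56.1 and 118 in cMyc+lateCD23lo. Library 1 was again the lowest of each subpopulation, and the cMyc+prePB libraries lay above all cMyc+lateCD23lo libraries. The ratio of these means was 6.87, a log2 difference of 2.64 (0.93 to 4.35) with an adjusted p of 0.19 in limma and 0.0051 in DESeq2, which also called cMyc+early against cMyc+lateCD23lo (adjusted p = 0.0497). Without the 4 libraries numbered 1 it was 2.88 with an adjusted p of 0.0091, and the multigroup test gave 0.034. Slc19a2, a thiamine carrier, was highest in cMyc+lateCD23int at 228, 169, 167 and 82.7, against 34.5, 61.8, 72.4 and 55.1 in cMyc+lateCD23lo, without overlap (log2 difference 1.48, adjusted p = 0.79). Slc52a2, a riboflavin carrier, was at 0 in 3 libraries and at most 83.1.

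Nucleosides enter through Slc28 and Slc29 carriers. Slc29a1 (ENT1), the equilibrative carrier of adenosine and other nucleosides, had 970.5, 2452, 2364 and 3261 normalized counts in cMyc+prePB, 1056, 1840, 1361 and 2351 in cMyc+early, 595, 962, 2599 and 1721 in cMyc+lateCD23int, and 689, 919, 1109 and 1250 in cMyc+lateCD23lo. In cMyc+prePB 3 of 4 libraries lay above the highest cMyc+lateCD23lo library, and library 1 did not. The log2 difference was 1.10 (0.23 to 1.96), with an adjusted p of 0.27.

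The 36 mitochondrial carriers showed little difference on balance. Fitted means were higher in 18 of the 36 in cMyc+prePB and in cMyc+early, each against cMyc+lateCD23lo (49.5% and 49.6% of tested genes). Of the 36, 1 was among the 18 of the multigroup comparison. The 3 most abundant genes were close to level. Slc25a5 averaged 68144 ± 5039, 67217 ± 10375, 61924 ± 7249 and 70652 ± 6344, Slc25a4 averaged 10809, 9922, 8847 and 9106, and Slc25a3 averaged 8991 ± 375, 9133 ± 999, 8870 ± 1075 and 9789 ± 826. For Slc25a3 the 95% interval of each of the 6 log2 differences lay within ±0.47.

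The 1 among the 18 was Slc25a1 (chr16:17925223-17928219, minus strand), which exports citrate from the mitochondrion for lipid synthesis and whose promoter window is printed above. It had 307, 533, 474 and 559 normalized counts in cMyc+prePB, 203, 583, 278 and 378 in cMyc+early, 44.8, 183, 458 and 459 in cMyc+lateCD23int, and 58.2, 89.8, 119 and 162 in cMyc+lateCD23lo. Both cMyc+prePB and cMyc+early lay above cMyc+lateCD23lo without overlap, and cMyc+lateCD23int overlapped with each of the others. The ratio of means was 4.36 for cMyc+prePB (log2 difference 2.17, 0.92 to 3.43, adjusted p = 0.14 in limma and 0.0097 in DESeq2) and 3.36 for cMyc+early (1.73, 0.48 to 2.98, adjusted p = 0.32 in limma), both against cMyc+lateCD23lo. Without the 4 libraries numbered 1 the first difference was 2.11 with an adjusted p of 0.029. Slc25a53 went the other way, at 328, 67.8, 32.5 and 4.51 in cMyc+prePB and 488, 153, 239 and 176 in cMyc+lateCD23lo, with overlap (log2 difference −2.40, −4.20 to −0.59, adjusted p = 0.26 in limma). Its other means were 168 ± 41.4 in cMyc+early and 149 ± 68.3 in cMyc+lateCD23int. The mitochondrial folate carrier Slc25a32 averaged 752 ± 227, 658 ± 154, 621 ± 16.8 and 695 ± 89.2, and the iron importer Slc25a37 averaged 92.2 ± 37.7, 129 ± 80.8, 119 ± 43 and 154 ± 66.4, both with overlap.

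Metal carriers numbered 24, with 3 among the 18 (Slc30a5, Slc39a9 and Slc11a1). Slc30a5, which moves zinc into the Golgi (chr13:100802648-100833427, minus strand), had 1403, 1452, 1586 and 1227 normalized counts in cMyc+prePB, 1491, 2489, 1862 and 2152 in cMyc+early, 2258, 2184, 2364 and 2130 in cMyc+lateCD23int, and 1875, 1889, 1986 and 2130 in cMyc+lateCD23lo. cMyc+prePB lay below both late subpopulations without overlap and overlapped with cMyc+early through its library 1. At means of 1417 ± 148 against 2234 ± 101 the log2 difference from cMyc+lateCD23int was −0.66 (−1.01 to −0.31, adjusted p = 0.14 in limma), and DESeq2 gave an adjusted p of 0.014 for it. Slc30a4, another zinc exporter, averaged 147 ± 124 in cMyc+prePB and 467 ± 210 in cMyc+early (adjusted p = 0.41).

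The zinc importer Slc39a9 had its lowest values elsewhere, at 261, 120, 191 and 264 in cMyc+lateCD23lo against 400, 394, 540 and 377 in cMyc+early, without overlap (log2 difference 1.08, adjusted p = 0.28). Its cMyc+prePB and cMyc+lateCD23int means were 423 ± 124 and 344 ± 122. The exons of Slc39a9 share 4.52% of their length with Erh on the other strand. Erh had a mean of 12946 against 351 for Slc39a9, and the library kit does not keep strand. Reads in the shared part therefore cannot be told apart by strand. Slc39a14, a zinc and iron importer, was low throughout and averaged 75.3, 78.2, 49.1 and 21.8. Slc11a1, an iron and manganese exporter of phagosomes, had 1.07, 62.9, 40.6 and 161 in cMyc+prePB and at most 1.05 in cMyc+early, which is at most 1 read, so no ratio is given; cMyc+lateCD23int ran from 0.995 to 67.9 and cMyc+lateCD23lo from 0 to 57.1. Slc11a1 is known from macrophages, and the summed macrophage markers ranged from 1.65 to 535 in cMyc+prePB, 0.962 to 190 in cMyc+early, 48.8 to 705 in cMyc+lateCD23int and 1.87 to 1157 in cMyc+lateCD23lo, with 3 of 6 reaching a mean of 10; their part was not tested. Slc11a2 (DMT1), an iron importer, averaged 174 ± 100, 132 ± 69.1, 101 ± 33.8 and 82.3 ± 85.2. The copper importer Slc31a1 (means from 2317 to 2856) and the magnesium carrier Slc41a2, at 460 ± 146, 283 ± 169, 477 ± 82.5 and 568 ± 129, overlapped between all subpopulations, with an adjusted p of 0.32 for Slc41a2 between cMyc+early and cMyc+lateCD23lo.

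Nucleotide sugars, sulfate donors and acetyl-CoA are carried into the Golgi and the endoplasmic reticulum by a class of 21 genes, mostly of the Slc35 family. Of these, 3 (Slc35d2, Slc35b4 and Slc35b3) were among the 18. Fitted means were higher in cMyc+lateCD23int than in cMyc+lateCD23lo in 15 of 21 (median log2 difference 0.28) and in cMyc+early in 14 (0.18). Over all tested genes the shares were 51.2% and 49.6%, with medians of 0.02 and −0.01.

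Slc35b4, a carrier of UDP-xylose and UDP-N-acetylglucosamine (chr6:34153380-34177111, minus strand), had 696, 733, 1111 and 590 normalized counts in cMyc+prePB, 1162, 982, 1205 and 1470 in cMyc+early, 1033, 799, 1439 and 703 in cMyc+lateCD23int, and 724, 480, 511 and 630 in cMyc+lateCD23lo. cMyc+early lay above cMyc+lateCD23lo without overlap, at a ratio of 2.05. The log2 difference was 1.04 (0.50 to 1.58), with an adjusted p of 0.11 in limma and 0.016 in DESeq2. Slc35d2, which also carries UDP-N-acetylglucosamine, had 154, 339, 145 and 462 in cMyc+prePB, 1013, 565, 660 and 511 in cMyc+early, 697, 573, 425 and 548 in cMyc+lateCD23int, and 511, 345, 247 and 186 in cMyc+lateCD23lo. cMyc+early and cMyc+lateCD23int were high and the other two low, cMyc+early without overlap with either of them, although 1 cMyc+lateCD23lo library (511) came within 1 count of its lowest. Log2 differences were −1.44 (−2.28 to −0.61, adjusted p = 0.22) for cMyc+prePB against cMyc+early and 1.14 (0.31 to 1.98, adjusted p = 0.32) for cMyc+early against cMyc+lateCD23lo. Markers of follicular or naive B cells, which include the sorting markers Fcer2a and Cr2, had summed counts from 7243 to 13210 in cMyc+prePB, 16710 to 25440 in cMyc+early, 12470 to 23060 in cMyc+lateCD23int and 4601 to 13670 in cMyc+lateCD23lo. All 6 were read, and their part was not tested.

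Slc35b3, the carrier of the sulfate donor PAPS, peaked in cMyc+lateCD23int at 395, 612, 457 and 563, above every library of the other subpopulations, which ran from 177 to 377. Its log2 difference was −0.98 for cMyc+prePB and −0.98 for cMyc+early against it, with adjusted p of 0.29 and 1.0. Slc35a4 varied widely within subpopulations: its cMyc+prePB libraries ran from 538 to 3313 and its cMyc+lateCD23lo libraries from 347 to 897, with overlap (log2 difference 1.61, adjusted p = 0.29). Slc35b1, the highest of the class per kilobase, had means from 993 to 1242.

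Ion carriers fell into a class of 9 for calcium, sodium, potassium and chloride and a class of 11 for anions and pH. In the first, 2 of 9 had a higher fitted mean in cMyc+prePB (median log2 difference −0.26) and 3 of 9 in cMyc+early (−0.48), both against cMyc+lateCD23lo. Over all tested genes the shares were 49.5% and 49.6%, with medians of −0.01 and −0.01. The 3 genes of this class among the 18 were Slc12a2, Slc12a4 and Slc24a5. Slc12a2 (NKCC1), which brings in sodium, potassium and chloride, had 638, 576, 784 and 729 normalized counts in cMyc+prePB, 585, 471, 476 and 224 in cMyc+early, 764, 719, 548 and 757 in cMyc+lateCD23int, and 997, 822, 560 and 937 in cMyc+lateCD23lo. cMyc+early was the lowest, with 1 library (585) inside the range of the others. Its log2 difference from cMyc+lateCD23lo was −0.97 (−1.56 to −0.37, adjusted p = 0.22).

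Slc12a4 (KCC1), a potassium and chloride exporter, was also lowest in cMyc+early, at 0, 2.66, 7.70 and 38.8 against 23.7, 50.5, 27.5 and 75.5 in cMyc+lateCD23lo (adjusted p = 0.31). Slc12a8, of the same family, had a mean of 70.7 ± 18.4 in cMyc+prePB and was higher there than in every cMyc+early library, whose mean was 13.7 ± 15.3. Slc24a5, a potassium-dependent sodium and calcium exchanger (chr2:125068124-125088677, plus strand), had 1651, 1445, 1732 and 1698 in cMyc+lateCD23lo, above all cMyc+prePB libraries (761 to 1238) and overlapping with 1491 in cMyc+early and 1558 in cMyc+lateCD23int. The log2 difference of cMyc+lateCD23int to cMyc+lateCD23lo was −1.03 (−1.71 to −0.36, adjusted p = 0.70). Its exons share 39.5% of their length with Myef2 on the other strand and the library kit does not keep strand, so reads of the 2 genes cannot be told apart.

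Among the carriers of anions and protons, the sodium and proton exchangers Slc9a7 and Slc9a9, of the Golgi and of endosomes, were among the 18. Slc9a7 had 427, 383, 673 and 442 normalized counts in cMyc+prePB and 290, 349, 180 and 255 in cMyc+lateCD23lo, without overlap, and averaged 494 ± 108 and 506 ± 154 in the other two. Log2 differences to cMyc+lateCD23lo were 0.84 for cMyc+prePB and 0.89 for each of the others, with adjusted p of 0.26, 0.32 and 0.70. Slc9a9 had 55.7, 39.7, 65.4 and 29.7 in cMyc+lateCD23int and 14, 28.1, 28.9 and 40.6 in cMyc+prePB, while 3 of 4 libraries were at or below 3 reads in cMyc+early and in cMyc+lateCD23lo. Slc4a8, a bicarbonate carrier, peaked in cMyc+lateCD23int at 168, 139, 262 and 123 against 32.2, 43, 102 and 21.6 in cMyc+prePB (adjusted p = 0.47), without overlap. Its relative Slc4a7 was more abundant and did not separate the subpopulations, at means from 1370 to 1743.

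**Figure D3:**
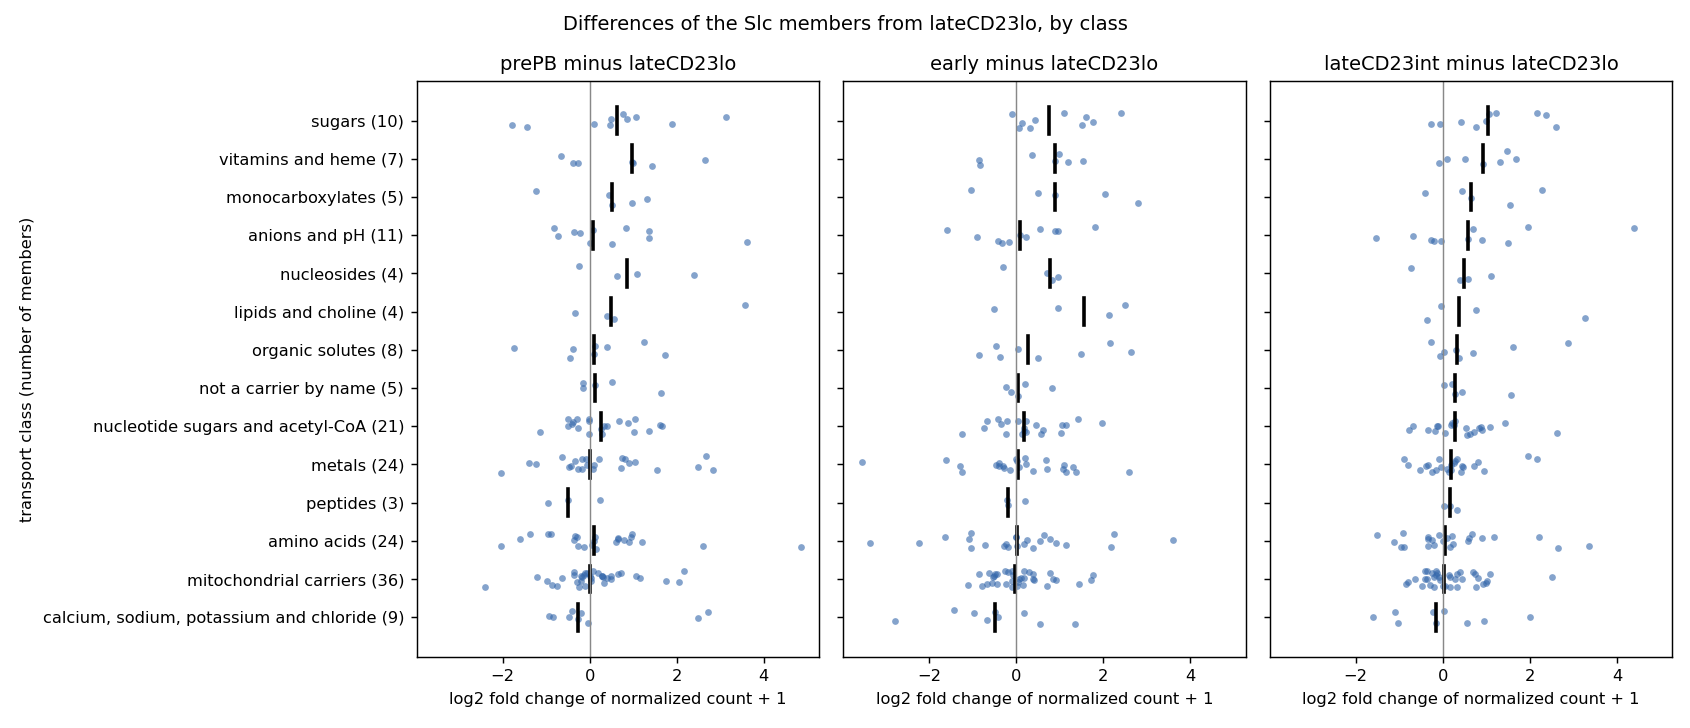
Log2 difference of each gene between cMyc+prePB, cMyc+early or cMyc+lateCD23int and cMyc+lateCD23lo, by class (points are genes, black bars class medians, classes with 3 or more genes). Sugar carriers have medians of 0.62, 0.76 and 1.03 and mitochondrial carriers lie around 0, and the 3 comparisons share the cMyc+lateCD23lo libraries.

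Peptide and phosphate carriers were few. Slc15a3, a lysosomal peptide and histidine carrier, averaged 409 ± 132 in cMyc+prePB and 648 ± 151, 646 ± 211 and 563 ± 129 in the others, and its relative Slc15a4 averaged 163 ± 87.5, 263 ± 119, 357 ± 89.6 and 326 ± 217. The phosphate importer Slc20a1, whose window held the E-box at 2 places, averaged 716 ± 275, 1009 ± 280, 1057 ± 283 and 877 ± 332. The choline carrier Slc44a2 averaged 413 ± 105, 626 ± 210, 573 ± 345 and 332 ± 168. None of these separated a pair of subpopulations past the adjusted threshold in limma, edgeR or DESeq2. Carriers whose symbols do not start with Slc, such as the mitochondrial pyruvate carrier, gave 0 of 26 tested genes at a multigroup p of at most 0.04, ion pumps 1 of 12 (Atp13a1, at 315 ± 64.5, 197 ± 70.9, 276 ± 131 and 109 ± 56.3) and genes of the amino acid stress response, which include regulators of carrier transcription, 0 of 12.

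Counted by pair, the carriers were compared with the shares over all 12505 tested genes, and the 6 comparisons share libraries. Between cMyc+prePB and cMyc+early, no gene passed the adjusted test in limma (0.192% of tested genes did). At an unadjusted p under 0.05, 17 did (9.66%, against 8.58% of tested genes). Of these, 8 were higher in cMyc+prePB (3.81% of tested genes) and 9 lower (4.77%). In 2 genes all cMyc+prePB libraries lay above all cMyc+early libraries (2.06% of tested genes) and in 2 below (2.18%). The first 2 include Slc11a1, for which cMyc+prePB library 1 and cMyc+early library 1 each held 1 read and differ only by scaling. Between cMyc+prePB and cMyc+lateCD23int, none passed in limma (0.144%) and 16 had an unadjusted p under 0.05 (9.09%, against 8.77%), 5 of them higher (3.41%) and 11 lower (5.36%). The libraries did not overlap in 0 genes above (2.46%) and 5 below (2.75%). DESeq2 called 2 genes (Slc14a1 and Slc11a1) and 1 (Slc30a5) in these comparisons, and edgeR 0 in both.

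Between cMyc+prePB and cMyc+lateCD23lo, none passed in limma (0.264%) and 21 had an unadjusted p under 0.05 (11.9%, against 12.7% of tested genes). Of these, 16 were higher in cMyc+prePB (9.09% of the carriers, 6.07% of tested genes) and 5 lower (2.84%, against 6.63%). The 16 included Slc14a1, Slc25a1, Slc19a1, Slc3a2, Slc29a1, Slc16a1, Slc2a6 and Slc6a6, and the 5 included Slc30a5, Slc37a4 and Slc24a5. Without cMyc+prePB replicate 1 the counts were 29 higher (9.07% of tested genes) and 7 lower (9.13%). Without cMyc+prePB replicate 4 they were 12 higher (4.29%) and 5 lower (4.76%). At the same unadjusted threshold edgeR gave 12 higher (6.22%) and 4 lower (5.76%), and DESeq2 18 higher (7.43%) and 5 lower (6.69%). DESeq2 called 5 genes (Slc14a1, Slc25a1, Slc7a3, Slc19a1 and Slc27a4) and edgeR 0. In 8 genes every cMyc+prePB library lay above every cMyc+lateCD23lo library (3.01% of tested genes), and in 2 below (3.55%).

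Between cMyc+early and cMyc+lateCD23int none passed in limma (0.008%) and 9 had an unadjusted p under 0.05 (5.11%, against 3.71%). All 9 were lower in cMyc+early (2.26% of tested genes, and 1.45% higher), among them Slc12a2, Slc12a4, Slc35b3, Slc41a2 and Slc4a8. Without overlap 2 genes lay above (1.11%) and 2 below (1.37%). DESeq2 and edgeR called 0, with 6 and 5 at an unadjusted p under 0.05. Between cMyc+early and cMyc+lateCD23lo 1 gene passed in limma (Slc14a1, where 0.28% of tested genes did), edgeR called the same 1 and DESeq2 5 (Slc14a1, Slc35b4, Slc7a3, Slc11a1 and Slc19a1), and 20 had an unadjusted p under 0.05 (11.4%, against 10.3%). Of these, 13 were higher in cMyc+early (5.2%) and 7 lower (5.12%), and 7 lay above (2.86%) and 1 below (3.37%) without overlap. Between cMyc+lateCD23int and cMyc+lateCD23lo, Slc14a1 alone passed in limma, edgeR and DESeq2, in limma as the 1 gene of all 12505 to do so (0.008%). At an unadjusted p under 0.05, 14 passed (7.95%, against 6.28%), of which 12 were higher in cMyc+lateCD23int (6.82%, against 3.77%) and 2 lower (1.14%, against 2.51%). Every cMyc+lateCD23int library lay above every cMyc+lateCD23lo library in 8 genes (1.91% of tested genes) and below in 0 (1.86%).

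**Figure D4:**
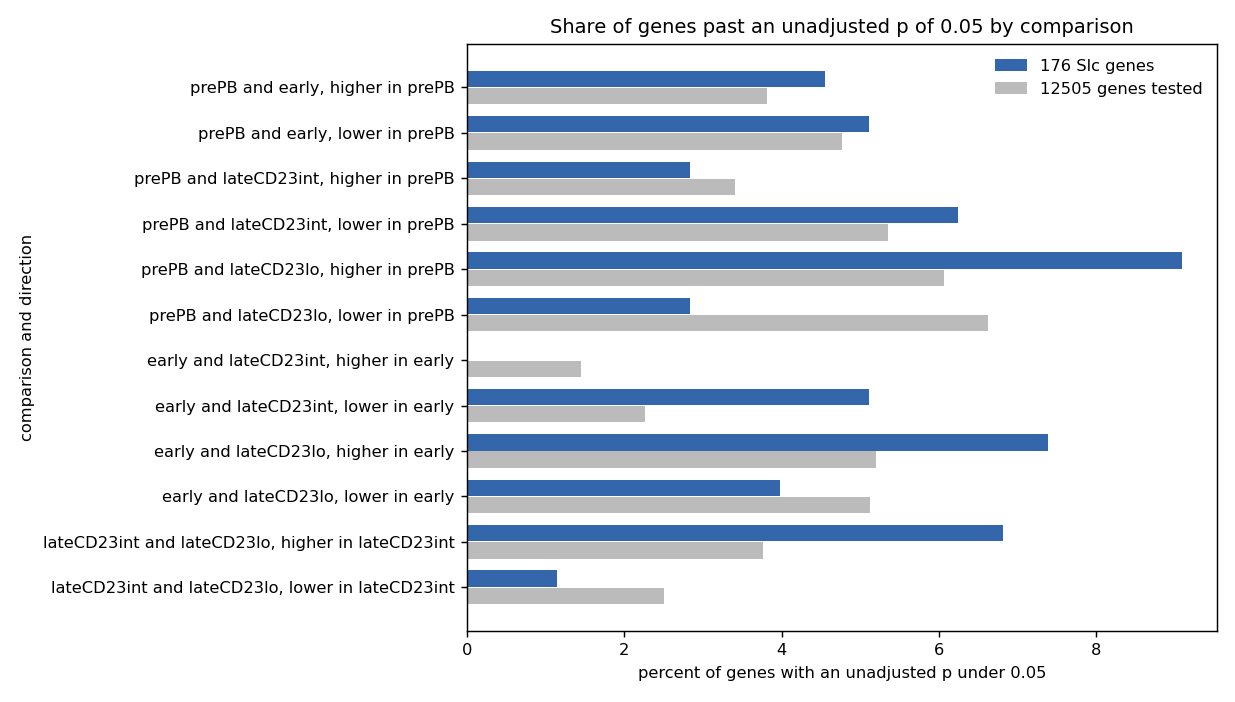
Share of the 176 carriers and of all 12505 tested genes at an unadjusted p under 0.05 in each comparison, by direction. Carriers stand above all genes on the side away from cMyc+lateCD23lo, with 9.09% against 6.07% higher in cMyc+prePB and 6.82% against 3.77% higher in cMyc+lateCD23int. They also do so in comparisons without cMyc+lateCD23lo, with 5.11% against 2.26% lower in cMyc+early than in cMyc+lateCD23int.

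In the order of the subpopulations, 69 of the 176 genes (39.2%) had their lowest mean in cMyc+lateCD23lo, against 29.4% of tested genes, and 37 (21.02%) their highest, against 27.8%. Among genes with a mean of at least 100 the share lowest in cMyc+lateCD23lo was 47 of 117 (40.2%), against 30.8% of 8669 tested genes. The median log2 difference of the carriers from cMyc+lateCD23lo was 0.09 for cMyc+prePB, 0.13 for cMyc+early and 0.27 for cMyc+lateCD23int, and those of all tested genes were −0.01, −0.01 and 0.02. Myc itself averaged 3823 ± 1022 in cMyc+prePB and 2503 ± 1214 in cMyc+early, then 2079 ± 1245 in cMyc+lateCD23int and 1427 ± 229 in cMyc+lateCD23lo over the 4 libraries of each. Its multigroup test did not pass (adjusted p = 0.35 in limma).

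The libraries numbered 1 stood apart over all tested genes, and also in the carriers. In 12 of the 176 genes (6.82%) library 1 was the lowest of its subpopulation in all 4 subpopulations, against 4.05% of tested genes. They included Slc25a1, Slc3a2, Slc19a1, Slc35a4, Slc29a1, Slc2a1, Slc25a4, Slc25a32 and Slc43a1. In 2 (1.14%) it was the highest in all 4, against 4.23% of tested genes. Over all tested genes, numbers 2, 3 and 4 were lowest in all 4 in 0.368%, 0.216% and 0.792%. They were highest in all 4 in 0.560%, 0.256% and 0.656%. The share of all reads that fell on the 176 genes was also lowest in library 1 of each subpopulation: 0.667% against 0.760% to 0.814% in cMyc+prePB, 0.663% against 0.707% to 0.784% in cMyc+early, 0.592% against 0.713% to 0.756% in cMyc+lateCD23int, and 0.640% against 0.686% to 0.726% in cMyc+lateCD23lo. Myc was lowest in library 1 in 3 of the 4 subpopulations, at 2300, 1183 and 857, and not in cMyc+lateCD23lo, at 1528. Their read totals were not low, at 21430755 to 25233703 of a range from 19812080 to 25795815. Leaving out all 4 libraries numbered 1, an alternative chosen after seeing the data, 27 carriers passed at a multigroup p of at most 0.04 (11.6% of tested genes). The adjusted test then called Slc25a1, Slc7a3 and Slc19a1 between cMyc+prePB and cMyc+lateCD23lo, and Slc14a1, Slc7a3 and Slc19a1 between cMyc+early and cMyc+lateCD23lo. Whether a number marks a shared day or animal is not given in the labels.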

How the data were processed

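Total RNA of 4 sorted cMyc+ subpopulations, isolated with an RNeasy Micro kit, was made into libraries with a low-input kit that keeps no strand. The deposited values are a signal, namely each gene's count over the size factor of its library, as computed by the authors. The submitters' processing notes name Trimmomatic 0.36, STAR 2.5.2a, RSEM 1.2.31, DESeq2 1.20.0, R 3.5.1 and GRCm38. Whole reads were recovered for 100% of values, 19812080 to 25795815 per library. Columns were assigned by the names in the labels. Genes with a mean of at least 10 (12505) were tested as log2(normalized count + 1) in R 4.3.3 with limma 3.58.1, 1 model over 16 libraries, a trended prior, a moderated F test and 6 contrasts, with Benjamini-Hochberg adjustment. Fold changes on this scale are differences of mean logs, and ratios given in the text are of mean normalized counts. In low or variable genes the log2 difference can be smaller or larger than the ratio of means implies. Standard errors and 95% intervals came from this model. No fold is given against a subpopulation at or under 3 reads. Alternatives were edgeR 4.0.16 and DESeq2 1.42.0 on recovered reads, pseudocounts of 0.5 and 5, other filters, scalings and designs, a replicate block, and leaving out each library. The tests were tried on simulated data. Lengths and gene coordinates (GRCm38) came from GENCODE, where all 176 genes were matched.

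Genes were named by rule: adjusted p under 0.05, the 30 smallest multigroup p-values, the highest level of each class, 3 genes on either side of the mean of 10, and a list of well known B cell carriers. The carriers, classes and lists were chosen with earlier results of these data known.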

Additional observations from a re-analysis of the deposited data

Results flagged for a closer look

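In 264 groups of 4 libraries (66 named carriers in 4 subpopulations), 23 held 1 library far from the other 3 by Dixon's 95% criterion for the gap over the range, in 15 genes. Chance alone gives about 1 in 20.

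Many were low genes that were read in a single library. The iron exporter Slc40a1 had 47.3 normalized counts in cMyc+prePB replicate 1 (others at most 0.902), 41.6 in cMyc+early replicate 2 (others at most 1.05), 61.2 in cMyc+lateCD23int replicate 3 (others at 0) and 87.3 in cMyc+lateCD23lo replicate 1 (others at most 2.04). The mitochondrial carrier Slc25a23 had 49.4 in cMyc+prePB replicate 1 (others at most 1.80), 20.8 in cMyc+early replicate 4 (others at most 3.85) and 28.6 in cMyc+lateCD23lo replicate 4 (others at most 6.55). Slc2a9, a urate and hexose carrier, had 84.1 in cMyc+early replicate 2 and 1.07 in cMyc+prePB replicate 1, with all others of both subpopulations at 0. Slc9a9 had 37.2 in cMyc+early replicate 2 (others at most 1.92) and 23.4 in cMyc+lateCD23lo replicate 3 (others at 0). Slc12a8 had 74.7 in cMyc+lateCD23int replicate 3 (others at most 0.929). The fatty acid carrier Slc27a4 had 0.936, which is 1 read, in cMyc+lateCD23lo replicate 2 (others at 0), and the inositol carrier Slc5a3 had 126 in cMyc+prePB replicate 1 (others 3.31 to 22.5).

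In better measured genes, a library was low for Slc14a1 in cMyc+lateCD23int replicate 2 (271, others 459 to 485), Slc19a2 in cMyc+early replicate 1 (61.8, others 112 to 122), Slc2a1 in cMyc+early replicate 1 (51.4, others 350 to 411) and Slc2a3 in cMyc+prePB replicate 2 (38.04, others 200 to 228). A library was high for Slc1a5 in cMyc+lateCD23int replicate 3 (2225, others 720 to 966) and in cMyc+lateCD23lo replicate 2 (1063, others 540 to 584). The same held for Slc44a2 in cMyc+lateCD23int replicate 3 (1089, others 362 to 425), Slc39a9 in cMyc+early replicate 3 (540, others 377 to 400) and Slc7a7 in cMyc+lateCD23int replicate 1 (332, others 118 to 145).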

How the results depend on the processing

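Counts are of carriers past an adjusted p of 0.05. DESeq2 called 4 in the multigroup comparison, 2 between cMyc+prePB and cMyc+early, 1 between cMyc+prePB and cMyc+lateCD23int, and 5 each for cMyc+prePB and cMyc+early against cMyc+lateCD23lo. Between cMyc+prePB and cMyc+lateCD23lo, the fit with no trend called 1, and fits without 1 library 0 to 1. Between cMyc+lateCD23int and cMyc+lateCD23lo, quantile normalization and the fit of only the groups compared called 0, and fits without 1 library 0 to 1. Without the 4 libraries numbered 1, chosen after seeing the data, the counts were 2 in the multigroup comparison, 3 for cMyc+prePB and 3 for cMyc+early against cMyc+lateCD23lo, and 0 for cMyc+lateCD23int. The causes were not tested. At a multigroup p of at most 0.04, 13 to 26 carriers passed without 1 library, 26 without cMyc+prePB replicate 1 (11.4% of tested genes).

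Taking replicate numbers as a block, 5 carriers were called between cMyc+prePB and cMyc+lateCD23lo (Slc14a1, Slc25a1, Slc3a2, Slc19a1 and Slc29a1), and 4 with the block in edgeR; the block changed no other count of adjusted calls. Deviations of same-numbered libraries had a mean correlation of 0.051, against −0.017 for other pairs. The correlation was above 0.1 in 5 of 24 same-numbered pairs (−0.13 to 0.17), and 11 of 16 libraries correlated best with their own number. Among libraries numbered 1 it ran from 0.066 to 0.17, while the highest of all pairs between subpopulations, 0.20, joined different numbers. At a multigroup p of at most 0.04, limma with the block passed 24 carriers (12.9% of tested genes), against 18 (8.55%) without it.

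Some low or variable genes changed sign without ever passing: Slc25a23 between cMyc+prePB and cMyc+lateCD23int, 0.37 in DESeq2 and 0.37 in edgeR against −1.14; Slc2a3 between cMyc+prePB and cMyc+lateCD23lo, −0.65 without the libraries numbered 1 and −0.44 to 1.47 without 1 library; Slc40a1 between cMyc+lateCD23int and cMyc+lateCD23lo, 0.72 with the block in edgeR, 1.45 without the libraries numbered 1 and −2.02 to 0.96 without 1 library; and Slc25a37 between cMyc+early and cMyc+lateCD23lo, −1.17 to 0.22 without 1 library. Each of the other named carriers, in the comparison followed for it, kept its direction in every one of the 29 alternatives that gave a value. Depth limits genes near 3 reads.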
